A study of Rattus norvegicus with 21 samples.

Results

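The genes described are the collagens and the enzymes that process them, in astrocytes of the rat forebrain. They were taken by gene symbol, as every gene named Col, a number, the letter a and a number, together with Lox, Loxl1 to Loxl4, Plod1, Plod2, Plod3, P4ha1, P4ha2, Serpinh1, Pcolce and Bmp1. Of 14217 genes measured, 53 were members, namely 41 collagen chains and 12 processing enzymes. Col4a3, Col6a4, Col21a1, Col28a1 and Loxl4 had no probe set of their own and were not analysed here. Membership went by symbol and not by a measured value, but the list was drawn up with earlier results of these data known. The probe set of each gene was the brightest on average.

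The 7 groups held 3 biological replicates each, 21 Affymetrix rat genome expression arrays in all, from Sprague Dawley rats with no mutant allele or transgene named in the labels. Fresh P1 cells and fresh P7 cells were panned from the forebrain on an antibody to the integrin ITGB5 at postnatal day 1 or 7 and lysed at once. HBEGF P1 cultures and HBEGF P7 cultures were such cells kept 7 days in serum-free medium with 5 ng/ml of heparin-binding EGF-like growth factor (HBEGF). Serum P7 cultures were panned P7 cells kept 7 days in medium with 10% foetal calf serum, and withdrawn P7 cultures were washed after those 7 days and kept 7 more days in HBEGF medium. MD cultures were the classical astrocyte cultures of McCarthy and de Vellis, made from P1 forebrain without panning and grown 7 days with 10% serum. The age given for the HBEGF P7 cultures differs between label fields (p1 in one, P7 in the title and source), and the title was followed. Levels are log2 of the deposited intensity, and the median of all values was 7.11. A gene rose or fell, or was called, where limma gave an adjusted p (Benjamini-Hochberg over all probe sets) under 0.05 and a log2 change of at least 1 in size. Intensities of different probe sets are not on a common scale per molecule, so levels are compared between groups and not between genes.

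Collagens are secreted proteins whose chains wind around each other into a helix. Fibril-forming collagens build the banded fibrils of connective tissue, network-forming collagens build the sheet of basement membranes, and smaller classes coat fibrils, form beaded filaments or cross the cell membrane. Inside the cell, prolyl and lysyl hydroxylases modify the chains and the chaperone HSP47 holds the helix folded. After secretion the propeptides are cut off, and lysyl oxidases cross-link the chains. In the brain, fibrillar collagen is found mainly in the meninges and around large vessels, and basement membrane collagen lines vessels and the glial limit at the surface.

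Promoter sequence is shown for members whose levels are compared most closely below: Col1a2, which stood apart from its partner chain Col1a1, the pair Col4a1 and Col4a2, which start head to head, and Col6a1. RefSeq promoters (build GRCr8) were at hand for 41 of the 53 members. For Col1a2 the stretch is chr4:33518307-33518406, plus strand, 100 bases, with capitals at CCAAT read on the other strand (ATTGG) and at TATAAA. This stretch does not reach the annotated start: ATTGG begins 221 and TATAAA 170 bases before it. For Col4a1 and Col4a2 it is the 76 bases between their annotated starts, chr16:84885521-84885596, plus strand, with capitals at GGGCGG read on the other strand (CCGCCC). For Col6a1 it is chr20:11905440-11905689, plus strand, the 250 bases before the annotated start, with capitals at a match to TGANTCA, the letters bound by AP-1 factors.
Col1a2: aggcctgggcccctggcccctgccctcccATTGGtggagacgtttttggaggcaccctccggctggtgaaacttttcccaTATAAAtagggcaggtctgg
Col4a1-Col4a2: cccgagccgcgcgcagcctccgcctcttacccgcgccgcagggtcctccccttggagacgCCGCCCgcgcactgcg
Col6a1: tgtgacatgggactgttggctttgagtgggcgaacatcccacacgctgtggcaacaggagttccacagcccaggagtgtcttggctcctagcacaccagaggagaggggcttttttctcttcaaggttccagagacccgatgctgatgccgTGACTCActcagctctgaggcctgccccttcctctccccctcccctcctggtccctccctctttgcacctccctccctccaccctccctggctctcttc
In the 250 bases before the start, searched on both strands, CCAAT was found in 9 of the 41 members against 34% of 33469 promoters, and TATAAA in 4 against 12.9%. GGGCGG, the letters bound by Sp1, was found in 24 of the 41 against 30.5%, and TGANTCA in 1 against 6.34%. In windows of 76 bases GGGCGG was found in 18.1% of promoters. A match describes letters in the window and was not tested for binding.

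Arrays of a group ranked genes alike, with Spearman correlations from 0.963 to 0.994 and the lowest in HBEGF P7 cultures, and no 2 arrays held identical values. Of 9 astrocyte markers, 9 had means above 7.11 in the fresh groups and serum P7 cultures, and 8 in the other groups. Gfap lay between 12.5 ± 0.41 and 14.69 ± 0.07 (SD, n = 3), and Aldh1l1 between 8.65 ± 0.21 in MD cultures and 12.56 ± 0.19 in fresh P7 cells. The exception was Slc1a2, a glutamate transporter of mature astrocytes, at 8.25 ± 0.13 and 10.37 ± 0.22 in fresh P1 and P7 cells, and at 6.82 ± 0.11, 7.07 ± 0.53, 6.74 ± 0.16 and 6.14 ± 0.11 in HBEGF P1, HBEGF P7, MD and withdrawn P7 cultures. Over the 9 astrocyte markers measured, summed intensity lay between 62400, in MD cultures, and 141000, in fresh P7 cells. Markers of fibroblasts and meningeal cells were also present, 14 of 15 measured, and their summed intensity ran from 3260 to 7730 in fresh P1 cells, 5350 to 10300 in fresh P7 cells, 18100 to 23100 in HBEGF P1 cultures, 14800 to 35900 in HBEGF P7 cultures, 2940 to 4150 in MD cultures, 29800 to 82300 in serum P7 cultures and 60200 to 83300 in withdrawn P7 cultures. Between fresh P1 cells and HBEGF P1 cultures 2 of these 14 rose, Pdgfra from 9.55 to 13.23 and Mgp from 8.37 to 12.37, and 1 fell. Over all arrays the sum ran from 1000 to 6710 for the 10 mural markers, 462 to 3850 for 9 endothelial, 408 to 6110 for 8 microglial, 2920 to 26000 for 5 oligodendrocyte progenitor and 683 to 8470 for 6 neuronal markers. Pdgfra counts in both the fibroblast and the progenitor sums. In HBEGF P7 cultures replicate 2 stood apart: the fibroblast marker Dcn was at 7.6 there and at 11.58 and 12.31 in replicates 1 and 3, and many collagens were lower with it. Calls of members that rest on that array are given with and without it. Results for marker genes and other pathway genes are given only with it. In serum P7 cultures replicate 3 was the highest for the marker Aldh1a2, at 13.17 against 8.8 and 9.75 in its fellows. It was also highest for Pdgfra, at 13.73 against 10.99 and 11.72, but not for Dcn or Thy1. In such bulk RNA, more or fewer cells of a type and more or less RNA per cell cannot be told apart.

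**Figure D1:**
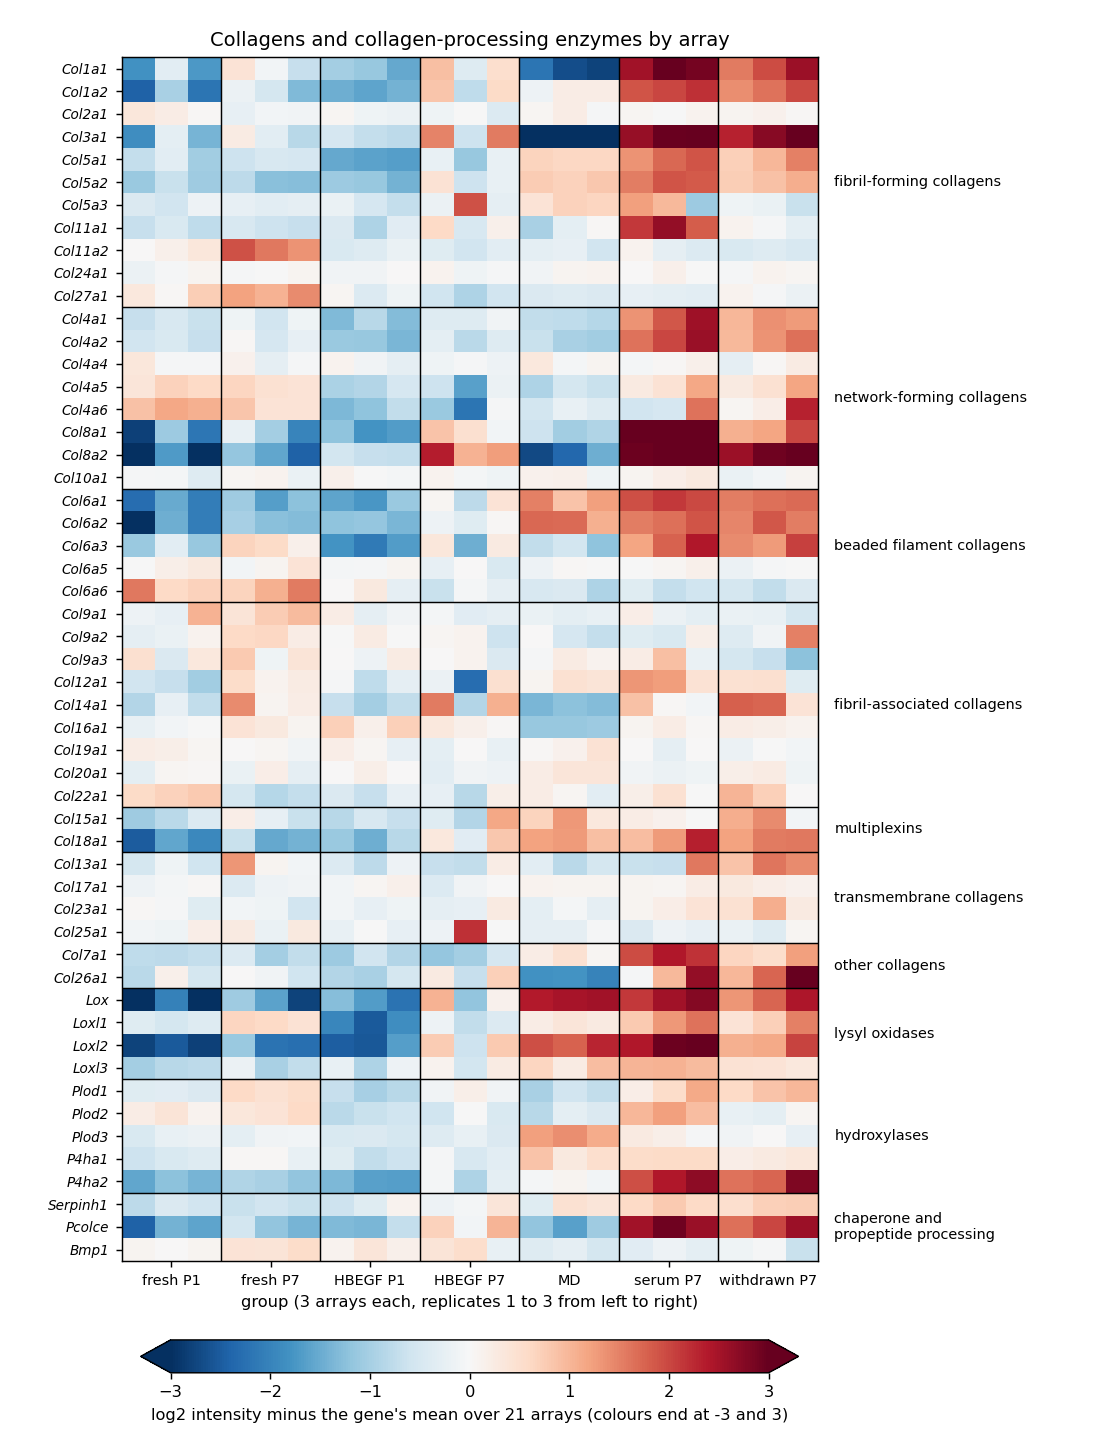
Level of each of the 53 members (rows, by class) in each of the 21 arrays (columns, by group), as log2 intensity minus the mean of that gene over all arrays. Red is above and blue below that mean; the serum P7 columns are red for most fibril-forming, network-forming and beaded filament collagens, while Col1a1 and Col3a1 are blue in MD cultures.

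Serum P7 cultures had the highest group mean for 27 of the 53 members, withdrawn P7 cultures for 8 and MD cultures for 5. Summed over the 41 collagens, intensity ran from 15200 to 21900 in fresh P1 cells, 19900 to 28700 in fresh P7 cells, 14000 to 15600 in HBEGF P1 cultures and 19000 to 40400 in HBEGF P7 cultures. It ran from 25200 to 26500 in MD cultures, 89700 to 121000 in serum P7 cultures and 63000 to 100000 in withdrawn P7 cultures, so these 2 last ranges lay above every other array. Of the 53 members, 38 were called in at least 1 of the 9 comparisons of 2 groups and 15 in none, and 10 of those 15 were under 7.11 in every group mean. The same counts were not made over all genes, so neither 38 nor 27 of 53 can be set against a share of all genes. The 15 include Serpinh1 and Bmp1, which were well above that median throughout, and cartilage or epithelial collagens such as Col2a1 (by the probe set used), Col10a1 and Col17a1.

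Among the 11 fibril-forming collagens, the major chains of collagens I and III had the widest ranges. Col1a1, the main chain of collagen I, stood at 8.3, 9.8 and 8.38 in fresh P1 cells, 10.52, 10.04 and 9.42 in fresh P7 cells, 9.1, 8.97 and 8.58 in HBEGF P1 cultures and 11.01, 9.72 and 10.62 in HBEGF P7 cultures. Its levels were 7.93, 7.45 and 7.34 in MD cultures, 12.64, 13.15 and 12.98 in serum P7 cultures and 11.67, 12.07 and 12.69 in withdrawn P7 cultures. The MD arrays were the lowest of all 21 and the serum P7 and withdrawn P7 arrays the highest, with no overlap. Col3a1, which forms collagen III, stood at 9.52, 11.11 and 9.99 in fresh P1 cells, 11.63, 11.07 and 10.57 in fresh P7 cells, 10.88, 10.69 and 10.6 in HBEGF P1 cultures and 12.88, 10.78 and 12.95 in HBEGF P7 cultures. Its levels were 7.72, 6.16 and 7.21 in MD cultures, 14.01, 14.37 and 14.69 in serum P7 cultures and 13.71, 14.13 and 14.61 in withdrawn P7 cultures. Its MD arrays again lay below all others, by more than in Col1a1. Col1a2, the second chain of collagen I, stood at 9.93, 11.37 and 10.16 in fresh P1 cells, 12.18, 11.83 and 11.03 in fresh P7 cells, 10.88, 10.76 and 10.92 in HBEGF P1 cultures and 13.18, 11.59 and 12.92 in HBEGF P7 cultures. Its levels were 12.2, 12.58 and 12.56 in MD cultures, 14.24, 14.35 and 14.54 in serum P7 cultures and 13.75, 13.98 and 14.32 in withdrawn P7 cultures. Here the MD arrays stood with the HBEGF P7 arrays and above all fresh arrays. Col5a1 and Col5a2, the chains of collagen V that start new fibrils, were higher in MD cultures than in fresh cells: Col5a2 had means of 10.92 ± 0.24 (fresh P1 cells), 12.63 ± 0.06 (MD cultures) and 13.63 ± 0.19 (serum P7 cultures). Col11a2 and Col27a1 were highest in fresh P7 cells, at 9.01 ± 0.28 and 8.74 ± 0.18, and Col24a1 and the Col2a1 probe set used were under 7.11 in every group.

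**Figure D2:**
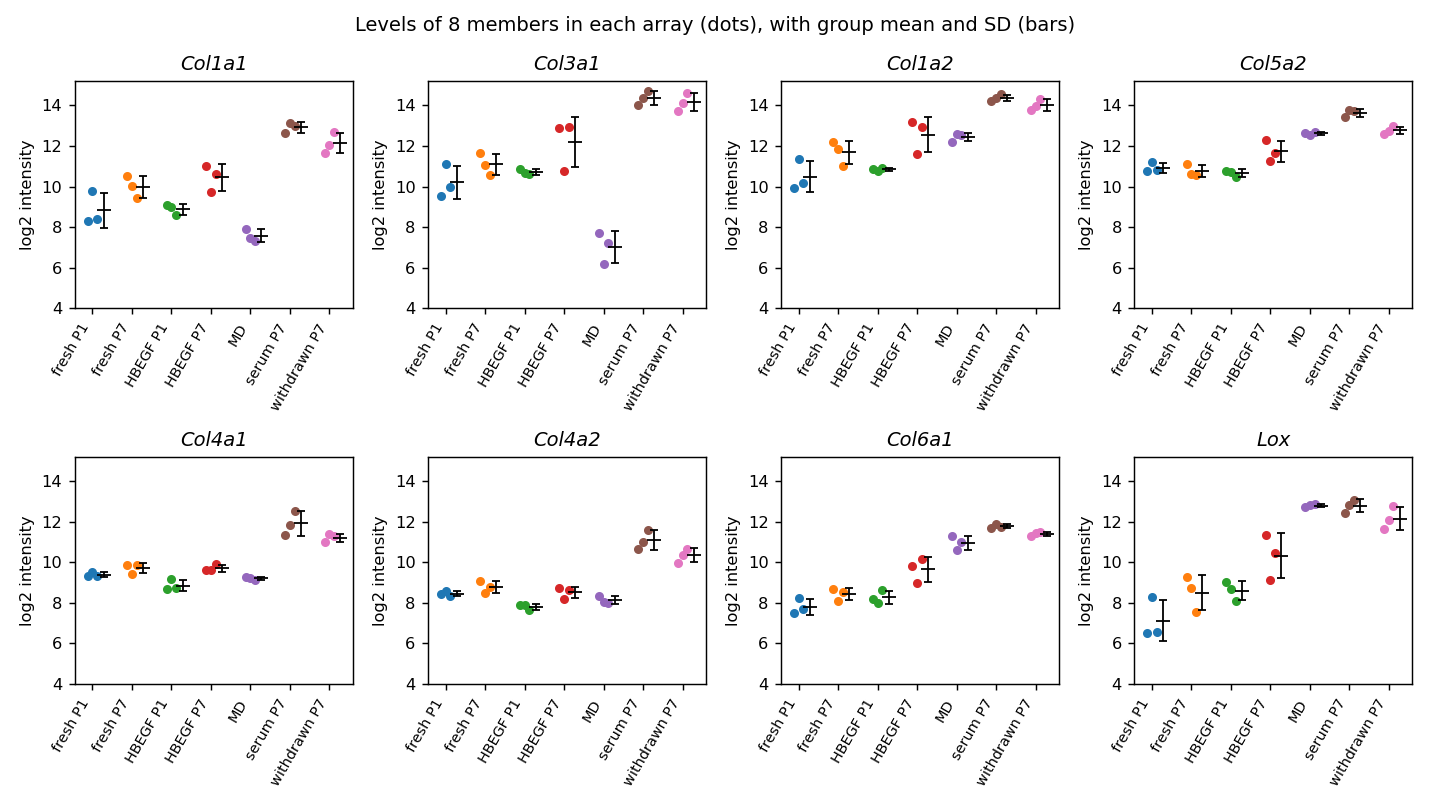
Log2 intensity of Col1a1, Col3a1, Col1a2, Col5a2, Col4a1, Col4a2, Col6a1 and Lox in each array (dots, 3 per group) with the group mean and SD (bars). Col1a1 and Col3a1 are lowest in MD cultures, Col4a1 and Col4a2 are highest in serum P7 and withdrawn P7 cultures, and Lox is as high in MD as in serum P7 cultures.

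The 8 network-forming collagens include the basement membrane chains and collagen VIII, a short-chain network collagen. Col4a1, a chain of the common basement membrane trimer, stood at 9.3, 9.53 and 9.33 in fresh P1 cells, 9.87, 9.43 and 9.88 in fresh P7 cells, 8.67, 9.17 and 8.71 in HBEGF P1 cultures and 9.61, 9.61 and 9.89 in HBEGF P7 cultures. Its levels were 9.26, 9.23 and 9.14 in MD cultures, 11.34, 11.86 and 12.55 in serum P7 cultures and 11, 11.38 and 11.28 in withdrawn P7 cultures. Serum P7 and withdrawn P7 arrays lay above all others, and MD arrays lay just below those of fresh P1 cells. Col4a2, its partner chain, stood at 8.44, 8.57 and 8.33 in fresh P1 cells, 9.06, 8.51 and 8.78 in fresh P7 cells, 7.91, 7.89 and 7.65 in HBEGF P1 cultures and 8.72, 8.2 and 8.64 in HBEGF P7 cultures. Its levels were 8.36, 8.05 and 7.97 in MD cultures, 10.64, 11.02 and 11.6 in serum P7 cultures and 9.98, 10.36 and 10.67 in withdrawn P7 cultures. The order of the groups was that of Col4a1, with HBEGF P1 cultures lowest in mean. Col8a1, a chain of collagen VIII, stood at 5.6, 7.31 and 6.23 in fresh P1 cells, 8.17, 7.39 and 6.41 in fresh P7 cells, 7.2, 6.61 and 6.73 in HBEGF P1 cultures and 9.26, 8.89 and 8.32 in HBEGF P7 cultures. Its levels were 7.78, 7.35 and 7.5 in MD cultures, 12.13, 12.52 and 11.57 in serum P7 cultures and 9.47, 9.58 and 10.41 in withdrawn P7 cultures. The serum P7 arrays stood above the withdrawn P7 arrays without overlap. Col8a2, the other chain, stood at 5.74, 7.7 and 5.44 in fresh P1 cells, 8.24, 7.85 and 6.98 in fresh P7 cells, 8.85, 8.71 and 8.68 in HBEGF P1 cultures and 11.75, 10.43 and 10.66 in HBEGF P7 cultures. Its levels were 6.69, 7.05 and 7.93 in MD cultures, 12.34, 12.62 and 12.52 in serum P7 cultures and 11.97, 12.32 and 12.89 in withdrawn P7 cultures. This gene differed from Col8a1 in that withdrawn P7 arrays reached the serum P7 arrays. Col4a5 and Col4a6, chains of a further basement membrane trimer, were high in both fresh groups (Col4a5 12.24 ± 0.17 and 12.19 ± 0.12, Col4a6 9.55 ± 0.14 and 9.07 ± 0.24) and lower in HBEGF P1 cultures (10.92 ± 0.23 and 7.42 ± 0.32).

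The beaded filament collagens are the chains of collagen VI, which lies around cells and binds fibrils. Col6a1 stood at 7.48, 8.25 and 7.68 in fresh P1 cells, 8.7, 8.11 and 8.54 in fresh P7 cells, 8.18, 8.01 and 8.64 in HBEGF P1 cultures and 9.82, 8.98 and 10.16 in HBEGF P7 cultures. Its levels were 11.27, 10.61 and 11 in MD cultures, 11.7, 11.89 and 11.75 in serum P7 cultures and 11.3, 11.42 and 11.47 in withdrawn P7 cultures. The MD arrays lay between the HBEGF P7 and the serum P7 arrays. Col6a2 stood at 5.3, 6.93 and 6.33 in fresh P1 cells, 7.4, 7.16 and 7.1 in fresh P7 cells, 7.2, 7.25 and 7.04 in HBEGF P1 cultures and 8.25, 8.03 and 8.43 in HBEGF P7 cultures. Its levels were 10.13, 10.09 and 9.47 in MD cultures, 9.93, 10.06 and 10.3 in serum P7 cultures and 9.86, 10.26 and 9.93 in withdrawn P7 cultures. For this chain the MD arrays overlapped those of serum P7 and withdrawn P7 cultures. Col6a3, the largest chain, stood at 8.42, 9.22 and 8.4 in fresh P1 cells, 10.22, 10.11 and 9.7 in fresh P7 cells, 7.74, 7.43 and 7.87 in HBEGF P1 cultures and 9.87, 8.07 and 9.81 in HBEGF P7 cultures. Its levels were 8.81, 9 and 8.33 in MD cultures, 10.72, 11.3 and 11.94 in serum P7 cultures and 10.97, 10.82 and 11.6 in withdrawn P7 cultures. In contrast to Col6a1 and Col6a2, its MD arrays lay below those of fresh P7 cells. Col6a6 was highest in the fresh groups (7 ± 0.55 and 7.14 ± 0.45), and Col6a5 stayed under 7.11 in every group.

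Fibril-associated collagens, which sit on the surface of fibrils, varied less. Col12a1 stood at 9.05, 8.94 and 8.59 in fresh P1 cells, 10.19, 9.73 and 9.87 in fresh P7 cells, 9.6, 8.88 and 9.37 in HBEGF P1 cultures and 9.45, 7.34 and 10.11 in HBEGF P7 cultures. Its levels were 9.71, 10.1 and 10.01 in MD cultures, 10.95, 10.89 and 10.07 in serum P7 cultures and 10.09, 10.11 and 9.26 in withdrawn P7 cultures. The values mostly overlapped, with HBEGF P7 replicate 2 the lowest of all. Col14a1 stood at 5.66, 6.27 and 5.79 in fresh P1 cells, 7.94, 6.6 and 6.74 in fresh P7 cells, 5.83, 5.51 and 5.8 in HBEGF P1 cultures and 8.09, 5.65 and 7.59 in HBEGF P7 cultures. Its levels were 5.15, 5.3 and 5.23 in MD cultures, 7.4, 6.56 and 6.45 in serum P7 cultures and 8.31, 8.27 and 6.94 in withdrawn P7 cultures. MD arrays were the lowest, and HBEGF P7 replicate 2 was again far below its fellows. Col16a1 stood at 9.98, 10.13 and 10.2 in fresh P1 cells, 10.61, 10.51 and 10.3 in fresh P7 cells, 10.92, 10.36 and 10.93 in HBEGF P1 cultures and 10.52, 10.35 and 10.25 in HBEGF P7 cultures. Its levels were 9.06, 9.06 and 9.11 in MD cultures, 10.29, 10.42 and 10.24 in serum P7 cultures and 10.42, 10.38 and 10.32 in withdrawn P7 cultures. All 3 MD arrays lay below the rest, which ran from 9.98 to 10.93. The multiplexins are collagens of the basement membrane zone. Col18a1, the source of endostatin, stood at 6.43, 7.36 and 6.98 in fresh P1 cells, 8.25, 7.39 and 7.5 in fresh P7 cells, 7.82, 7.45 and 8.1 in HBEGF P1 cultures and 9.24, 8.58 and 9.72 in HBEGF P7 cultures. Its levels were 10.13, 10.19 and 9.83 in MD cultures, 9.85, 10.19 and 11.25 in serum P7 cultures and 10.13, 10.49 and 10.5 in withdrawn P7 cultures. It was lowest in fresh P1 cells and high in MD, serum P7 and withdrawn P7 cultures, which overlapped. Col15a1 stood at 6.31, 6.57 and 6.96 in fresh P1 cells, 7.56, 7.12 and 6.7 in fresh P7 cells, 6.54, 6.9 and 6.69 in HBEGF P1 cultures and 7.01, 6.49 and 8.53 in HBEGF P7 cultures. Its levels were 8.03, 8.66 and 7.69 in MD cultures, 7.6, 7.51 and 7.37 in serum P7 cultures and 8.46, 8.8 and 7.28 in withdrawn P7 cultures. Within HBEGF P7 cultures alone it ran from 6.49 to 8.53, a wider span than that of the 7 group means.

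Transmembrane collagens were near the bottom of the scale. Col13a1 stood at 5.08, 5.47 and 5 in fresh P1 cells, 6.93, 5.68 and 5.52 in fresh P7 cells, 5.18, 4.81 and 5.45 in HBEGF P1 cultures and 4.91, 4.87 and 5.82 in HBEGF P7 cultures. Its levels were 5.28, 4.78 and 5.08 in MD cultures, 4.92, 4.9 and 7.19 in serum P7 cultures and 6.46, 7.21 and 7.02 in withdrawn P7 cultures. Withdrawn P7 cultures had the highest mean, but serum P7 replicate 3 and fresh P7 replicate 1 reached it. Col23a1 stood at 6.63, 6.55 and 6.23 in fresh P1 cells, 6.5, 6.46 and 6.02 in fresh P7 cells, 6.5, 6.33 and 6.46 in HBEGF P1 cultures and 6.31, 6.34 and 6.85 in HBEGF P7 cultures. Its levels were 6.3, 6.53 and 6.32 in MD cultures, 6.66, 6.78 and 6.99 in serum P7 cultures and 7.05, 7.68 and 6.85 in withdrawn P7 cultures. The groups overlapped, with withdrawn P7 cultures highest in mean. Col25a1 stood at 4.22, 4.16 and 4.49 in fresh P1 cells, 4.56, 4.1 and 4.58 in fresh P7 cells, 4.07, 4.27 and 4.05 in HBEGF P1 cultures and 4.15, 6.49 and 4.29 in HBEGF P7 cultures. Its levels were 4.03, 4.02 and 4.26 in MD cultures, 3.86, 4.13 and 4.05 in serum P7 cultures and 4.1, 3.91 and 4.35 in withdrawn P7 cultures. A single value stood out, that of HBEGF P7 replicate 2, the same array in which Col5a3 was at 10.46 against 8.36 and 8.28 in its fellows. Of the remaining collagens, Col7a1 makes the anchoring fibrils of epithelia. Col7a1 stood at 6.56, 6.53 and 6.6 in fresh P1 cells, 6.91, 6.31 and 6.58 in fresh P7 cells, 6.23, 6.74 and 6.45 in HBEGF P1 cultures and 6.17, 6.31 and 6.83 in HBEGF P7 cultures. Its levels were 7.55, 7.77 and 7.39 in MD cultures, 9.28, 9.72 and 9.5 in serum P7 cultures and 7.98, 7.84 and 8.55 in withdrawn P7 cultures. The serum P7, withdrawn P7 and MD arrays formed 3 separate steps above the other groups. Col26a1 stood at 6.95, 7.91 and 7.23 in fresh P1 cells, 7.79, 7.67 and 7.16 in fresh P7 cells, 6.89, 6.79 and 7.23 in HBEGF P1 cultures and 8.03, 7.08 and 8.49 in HBEGF P7 cultures. Its levels were 5.96, 5.98 and 5.76 in MD cultures, 7.73, 8.75 and 10.4 in serum P7 cultures and 8.76, 9.52 and 11.06 in withdrawn P7 cultures. MD arrays were the lowest, and replicate 3 was the highest of its group in both serum P7 and withdrawn P7 cultures, as it was for Col4a6.

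Lysyl oxidases start the cross-links between collagen chains. Lox stood at 6.49, 8.31 and 6.58 in fresh P1 cells, 9.25, 8.71 and 7.55 in fresh P7 cells, 9.04, 8.66 and 8.1 in HBEGF P1 cultures and 11.36, 9.14 and 10.46 in HBEGF P7 cultures. Its levels were 12.7, 12.81 and 12.85 in MD cultures, 12.45, 12.84 and 13.09 in serum P7 cultures and 11.64, 12.07 and 12.75 in withdrawn P7 cultures. MD and serum P7 arrays overlapped at the top, and both fresh groups and HBEGF P1 cultures did not exceed 9.25. Loxl2 stood at 5.01, 5.27 and 4.99 in fresh P1 cells, 6.66, 5.56 and 5.53 in fresh P7 cells, 5.31, 5.25 and 6.13 in HBEGF P1 cultures and 8.54, 7.17 and 8.57 in HBEGF P7 cultures. Its levels were 9.72, 9.56 and 10.06 in MD cultures, 10.19, 10.73 and 11.65 in serum P7 cultures and 8.84, 8.92 and 9.8 in withdrawn P7 cultures. Fresh cells and HBEGF P1 cultures were at the bottom, and every MD, serum P7 and withdrawn P7 array was above them. Loxl1 stood at 10.65, 10.49 and 10.62 in fresh P1 cells, 11.67, 11.61 and 11.45 in fresh P7 cells, 9.07, 8.49 and 9.16 in HBEGF P1 cultures and 10.87, 10.27 and 10.61 in HBEGF P7 cultures. Its levels were 11.23, 11.39 and 11.29 in MD cultures, 11.8, 12.32 and 12.65 in serum P7 cultures and 11.43, 11.74 and 12.52 in withdrawn P7 cultures. HBEGF P1 arrays were the lowest and well below fresh P1 cells. Loxl3 went from 8.39 ± 0.13 in fresh P1 cells to 10.28 ± 0.05 in serum P7 cultures.

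Hydroxylases prepare the chains in the endoplasmic reticulum. P4ha2, a prolyl 4-hydroxylase subunit, stood at 7.58, 7.91 and 7.74 in fresh P1 cells, 8.23, 8.18 and 7.95 in fresh P7 cells, 7.8, 7.51 and 7.48 in HBEGF P1 cultures and 9.09, 8.22 and 8.84 in HBEGF P7 cultures. Its levels were 9.08, 9.23 and 9.07 in MD cultures, 11.08, 11.55 and 11.82 in serum P7 cultures and 10.78, 10.88 and 11.95 in withdrawn P7 cultures. Serum P7 and withdrawn P7 arrays lay above every other array. Plod2, the lysyl hydroxylase of the telopeptides, stood at 10.89, 11.06 and 10.78 in fresh P1 cells, 11.01, 11.08 and 11.28 in fresh P7 cells, 9.86, 10 and 10.08 in HBEGF P1 cultures and 10.09, 10.67 and 10.21 in HBEGF P7 cultures. Its levels were 9.84, 10.38 and 10.25 in MD cultures, 11.67, 11.9 and 11.6 in serum P7 cultures and 10.46, 10.38 and 10.74 in withdrawn P7 cultures. Only the serum P7 arrays were above the fresh ones. Plod3, another lysyl hydroxylase, stood at 11.19, 11.41 and 11.46 in fresh P1 cells, 11.34, 11.54 and 11.55 in fresh P7 cells, 11.18, 11.21 and 11.1 in HBEGF P1 cultures and 11.24, 11.41 and 11.2 in HBEGF P7 cultures. Its levels were 12.86, 13.03 and 12.75 in MD cultures, 11.9, 11.82 and 11.59 in serum P7 cultures and 11.52, 11.65 and 11.4 in withdrawn P7 cultures. MD arrays stood alone above the rest. The chaperone and the propeptide enzymes came last. Serpinh1, which encodes the collagen chaperone HSP47, stood at 12.22, 12.55 and 12.43 in fresh P1 cells, 12.32, 12.42 and 12.33 in fresh P7 cells, 12.37, 12.63 and 13.11 in HBEGF P1 cultures and 12.84, 12.94 and 13.37 in HBEGF P7 cultures. Its levels were 12.64, 13.45 and 13.37 in MD cultures, 13.59, 13.79 and 13.59 in serum P7 cultures and 13.49, 13.71 and 13.74 in withdrawn P7 cultures. It was high in every array and was called in no comparison. Pcolce, which speeds removal of the C-terminal propeptide, stood at 6.77, 7.78 and 7.61 in fresh P1 cells, 8.64, 8 and 7.81 in fresh P7 cells, 7.87, 7.83 and 8.47 in HBEGF P1 cultures and 9.89, 9.12 and 10.22 in HBEGF P7 cultures. Its levels were 8, 7.57 and 8.13 in MD cultures, 11.72, 12.11 and 11.78 in serum P7 cultures and 10.84, 11.19 and 11.75 in withdrawn P7 cultures. MD arrays lay among the fresh ones, and serum P7 arrays were the highest apart from an overlap with withdrawn P7 replicate 3. Bmp1, the protease that Pcolce assists, stood at 10.17, 10.1 and 10.17 in fresh P1 cells, 10.51, 10.47 and 10.63 in fresh P7 cells, 10.2, 10.45 and 10.24 in HBEGF P1 cultures and 10.47, 10.62 and 9.86 in HBEGF P7 cultures. Its levels were 9.71, 9.82 and 9.56 in MD cultures, 9.75, 9.94 and 9.79 in serum P7 cultures and 9.96, 10.05 and 9.43 in withdrawn P7 cultures. MD, serum P7 and withdrawn P7 cultures had the lowest means.

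From postnatal day 1 to day 7, few of these genes were called in freshly panned cells. By the probe sets used, Col11a2, a minor fibril-forming collagen, alone rose, by 1.45 (SE 0.15, adjusted p = 5.35e-05), and Col22a1, found at tissue junctions, alone fell, with a log2 change of -1.37 (SE 0.25, adjusted p = 0.00603). A second probe set of the cartilage collagen Col2a1 also fell, at -2.64 (adjusted p = 3.24e-06). The probe sets used thus gave 2 of 53 members (3.77%), against 1.55% of all genes (1.37% rose and 0.183% fell). The median member changed by 0.34 and the median gene by -0.02, and 41 members were higher. Col1a1 and Col1a2 were higher by 1.16 (SE 0.4, adjusted p = 0.129) and 1.19 (SE 0.39, adjusted p = 0.109), which missed the threshold, and the fresh P1 replicate 2 array was high for both. Without that array 6 members were called in place of 2, among them Col1a1 at 1.65 (adjusted p = 0.0402) and Col1a2 at 1.64 (adjusted p = 0.0423). Among fibroblast and meningeal markers 0 of 14 were called.

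After 7 days in HBEGF medium, 5 members were called in P1 cells and 12 in P7 cells. The question of these comparisons was how culture without serum alters panned astrocytes. In P1 cells 1 member rose and 4 fell, or 9.43% of the members against 8.87% of all genes (4.38% rose and 4.49% fell). Col8a2 rose by 2.45 (SE 0.5, adjusted p = 0.00183). The basement membrane chains Col4a5 and Col4a6 fell, with log2 changes of -1.32 (SE 0.31, adjusted p = 0.00499) and -2.13 (SE 0.6, adjusted p = 0.0178). Loxl1 fell with -1.68 (SE 0.25, adjusted p = 0.000144) and Col22a1 with -1.14 (SE 0.25, adjusted p = 0.0034). The fibril-forming collagens gave 0 calls among 11, with a median of -0.07. With 1 array fewer, a call was lost for Col4a6 (-2.01 to -2.08) without HBEGF P1 replicate 1 or 2 or fresh P1 replicate 2. Here and below the log2 change that remained is in brackets. Without fresh P1 replicate 3, 8 members were called. The second Lox probe set was called higher, at 2.05 (adjusted p = 0.0257), where the one used gave 1.47 (SE 0.54, adjusted p = 0.068). Fibroblast and meningeal markers gave 2 calls up, Mgp and Pdgfra, and Thy1 fell. Pdgfra is also a marker of oligodendrocyte progenitors, of which 2 of 5 rose, Pdgfra by 3.68 and Sox10 by 1.83 (SE 0.21, adjusted p = 1.29e-05). The part of these markers in the results was not tested.

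In P7 cells 8 members rose and 4 fell in HBEGF medium, or 22.6% against 10.3% of all genes (4.78% rose and 5.51% fell). Both chains of collagen VIII rose, Col8a2 by 3.26 (SE 0.5, adjusted p = 0.000134), the largest rise among the members, and Col8a1 by 1.5 (SE 0.44, adjusted p = 0.0195). Among oxidases Loxl2 rose by 2.18 (SE 0.42, adjusted p = 0.00118) and Lox by 1.81 (SE 0.54, adjusted p = 0.0224), and Pcolce rose by 1.6 (SE 0.32, adjusted p = 0.00162). Col18a1 rose by 1.46, Col6a1 by 1.2 and Col6a2 by 1.02. The members that fell were Col11a2 with -2.03, Col27a1 with -1.92, Col6a6 with -1.44 and Col4a5 with -1.31. Col1a1 and Col3a1 changed by 0.46 (SE 0.4, adjusted p = 0.475) and 1.11 (SE 0.53, adjusted p = 0.149), which were not called. A call rested on single arrays for Col6a2 (0.92 to 0.99) without fresh P7 replicate 2 or 3 or HBEGF P7 replicate 3, Col8a1 (1.04 to 1.28) without fresh P7 replicate 3 or HBEGF P7 replicate 1, and Lox (1.3 to 1.74) without fresh P7 replicate 3 or HBEGF P7 replicate 1 or 3. The same was so for Col4a5 (-0.9) without HBEGF P7 replicate 2, and Col6a1 (0.95) without HBEGF P7 replicate 3. Without HBEGF P7 replicate 2 the members called numbered 14, and fibril-forming chains were then among them: Col3a1 at 1.83 (adjusted p = 0.00741), Col1a2 at 1.37 (adjusted p = 0.00912) and Col5a2 at 1.2 (adjusted p = 0.00045). Of the 14 fibroblast and meningeal markers 4 rose, led by Mgp (3.17) and Crabp2 (2.59), and their part was not tested. The culture change differed between P7 and P1 cells for 2 members (3.77%), against 0.816% of all genes (0.162% rose and 0.654% fell). Its difference was -1.51 (SE 0.22, adjusted p = 0.0023) for Col11a2 and -1.39 (SE 0.23, adjusted p = 0.00686) for Col27a1. In P1 cells these genes had changed by -0.52 and -0.54, against -2.03 and -1.92 in P7 cells. Without HBEGF P7 replicate 2, 4 members were called, with Col5a2 at 1.46 (adjusted p = 0.0187) and Col22a1 at 1.8 (adjusted p = 0.0163) added.

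Collagens of most classes were higher in panned P7 cells grown with serum. Against HBEGF P7 cultures, 24 members rose and 0 fell in serum P7 cultures, which is 45.3% rising, against 4.83% of all genes rising and 4.47% falling. The median member was higher by 0.85 and the median gene by 0. Of the fibril-forming chains 6 of 11 rose: Col1a1 by 2.47 (SE 0.4, adjusted p = 0.00038), Col3a1 by 2.15 (SE 0.53, adjusted p = 0.00772), Col5a1 by 2.18, Col11a1 by 2.1, Col5a2 by 1.9 and Col1a2 by 1.81. Of the network-forming chains 5 of 8 rose, with Col8a1 first at 3.25 (SE 0.44, adjusted p = 8.22e-05), Col4a2 at 2.57 (SE 0.22, adjusted p = 1.34e-06) and Col4a1 at 2.21 (SE 0.23, adjusted p = 6.44e-06). Of the 5 collagen VI chains 3 rose, Col6a1 by 2.13, Col6a3 by 2.07 and Col6a2 by 1.86. The second probe sets of Col6a3 and Col6a2 gave 0.71 (adjusted p = 0.00342) and 0.5 (adjusted p = 0.0176), which were not called. Col7a1 rose by 3.06 (SE 0.21, adjusted p = 1.13e-07). By contrast 1 of 9 fibril-associated and 0 of 4 transmembrane collagens rose, with medians of 0.08 and 0.3. With limma fitted to the compared groups alone, the calls of Col3a1, Col4a5, Col6a3, Col12a1 and Col18a1 were lost (adjusted p from 0.0722 to 0.192).

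The processing enzymes rose with them: 7 of 12 were called. All 4 lysyl oxidases rose, Loxl2 by 2.76 (SE 0.42, adjusted p = 0.000248), Lox by 2.48 (SE 0.54, adjusted p = 0.0038), Loxl1 by 1.67 and Loxl3 by 1.07. Of the 5 hydroxylases P4ha2 rose by 2.77 (SE 0.27, adjusted p = 3.31e-06) and Plod2 by 1.4 (SE 0.16, adjusted p = 2.2e-05), and Pcolce rose by 2.12 (SE 0.32, adjusted p = 0.000235). Serpinh1 changed by 0.6 (SE 0.21, adjusted p = 0.0458) and Bmp1 by -0.49 (SE 0.17, adjusted p = 0.0538). Without HBEGF P7 replicate 2 the calls numbered 20. Calls that failed with 1 array fewer were those of Col8a2 (1.29 to 1.62) without HBEGF P7 replicate 2 or 3 or serum P7 replicate 1 or 2 or 3, and Col12a1 (0.86 to 1.54) without HBEGF P7 replicate 2 or serum P7 replicate 1 or 2. Likewise failing were Col18a1 (0.84 to 0.95) without HBEGF P7 replicate 2 or serum P7 replicate 3, and Loxl3 (0.83) without HBEGF P7 replicate 2. Over the 12 measured pathway genes that modify and fold collagen, the 5 receptors and the 4 breakdown genes, 5 rose and 1 fell (28.6%, against 9.3% of all genes). The collagen receptor Itga1 rose by 3.25 (SE 0.45, adjusted p = 9.58e-05), Itga11 by 1.97 (SE 0.33, adjusted p = 0.000478), the collagen-degrading protease Ctsk by 1.88 (SE 0.53, adjusted p = 0.0172) and Mmp2 by 1.65 (SE 0.35, adjusted p = 0.0029). Of the 14 fibroblast and meningeal markers 5 rose, with Thy1 at 4.5 (SE 0.2, adjusted p = 3.96e-10) and Crabp2 at 1.93 (SE 0.62, adjusted p = 0.0358). Twist1 rose by 1.72 and Foxc1 by 1.64. Of 9 astrocyte markers 0 rose and 1 fell, S100b, at -1.16 (SE 0.2, adjusted p = 0.000567). The median change of these 9 was 0.27. The part of other cell types in the rise was not tested.

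At 7 days after serum was replaced by HBEGF medium, most of these genes were still high. Against serum P7 cultures 0 members rose and 6 fell, which is 11.3% falling, against 2.24% of all genes rising and 2.26% falling. Those that fell were Col11a1 with -2.26 (SE 0.28, adjusted p = 0.000156), Col8a1 with -2.26 (SE 0.44, adjusted p = 0.00502), Loxl2 with -1.67 (SE 0.42, adjusted p = 0.0236), Col7a1 with -1.38 (SE 0.21, adjusted p = 0.000922), Plod2 with -1.2 (SE 0.16, adjusted p = 0.00045) and the cartilage collagen Col9a3 with -1.12 (SE 0.29, adjusted p = 0.0272). Col3a1 changed by -0.21 (SE 0.53, adjusted p = 0.902), Col6a2 by -0.08 (SE 0.29, adjusted p = 0.936) and P4ha2 by -0.28 (SE 0.27, adjusted p = 0.658), and none of these was called. Leaving out 1 array at a time ended the calls of Col9a3 (-0.83 to -1.19) without serum P7 replicate 1 or 2 or withdrawn P7 replicate 2 or 3, and Loxl2 (-1.27 to -1.73) without serum P7 replicate 2 or 3 or withdrawn P7 replicate 1 or 2. The second Col14a1 probe set was called higher, at 1.39 (adjusted p = 0.0125), where the one used gave 1.04 (adjusted p = 0.27). Without serum P7 replicate 3, Col13a1 was called higher, at 1.99 (adjusted p = 0.00293). The withdrawn cultures were also 7 days older, so time and medium cannot be told apart. Of the 14 fibroblast and meningeal markers 0 rose and 1 fell, Thy1, at -2.56 (SE 0.2, adjusted p = 3.71e-06). The median change of the 14 was 0.81. Of 8 microglial markers 4 rose, and the part of all these markers was not tested.

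Measured against HBEGF P7 cultures, which serve as the base of both comparisons, 21 members rose in withdrawn P7 cultures and 0 fell. That is 39.6% rising, against 6.29% of all genes rising and 5.42% falling. P4ha2 was higher by 2.49 (SE 0.27, adjusted p = 1.23e-05) (serum P7: 2.77), Col3a1 by 1.94 (SE 0.53, adjusted p = 0.013) (serum P7: 2.15) and Col4a2 by 1.82 (SE 0.22, adjusted p = 4.67e-05) (serum P7: 2.57). Col6a3 was higher by 1.88, Lox by 1.84, Col6a2 by 1.78 and Col6a1 by 1.74. Col11a1 was at -0.16 (SE 0.28, adjusted p = 0.702), and Plod2 at 0.2 (SE 0.16, adjusted p = 0.397), close to the HBEGF P7 level. The count rested on single arrays more than others did: 12 members were called without HBEGF P7 replicate 2, and 12 without withdrawn P7 replicate 3. Dependent on 1 array were the calls of Col4a6 (1.24 to 1.96) without HBEGF P7 replicate 1 or 2 or withdrawn P7 replicate 3, Col13a1 (1.53 to 1.63) without HBEGF P7 replicate 1 or 2 or withdrawn P7 replicate 2 or 3, Col1a2 (0.97 to 1.3) without HBEGF P7 replicate 2 or withdrawn P7 replicate 3, and Col3a1 (1.23 to 1.71) without HBEGF P7 replicate 2 or withdrawn P7 replicate 3. This held as well for Col5a2 (0.8 to 0.99) without HBEGF P7 replicate 2 or 3 or withdrawn P7 replicate 3, Col8a2 (1.19 to 1.48) without HBEGF P7 replicate 2 or 3 or withdrawn P7 replicate 2 or 3, Col18a1 (0.89 to 1.13) without HBEGF P7 replicate 2 or withdrawn P7 replicate 2 or 3, and Col26a1 (1.27 to 1.52) without HBEGF P7 replicate 2 or withdrawn P7 replicate 3. To these belonged Lox (1.25 to 1.54) without HBEGF P7 replicate 2 or withdrawn P7 replicate 3, and Loxl1 (1) without withdrawn P7 replicate 3. Of the fibroblast and meningeal markers 7 of 14 rose, led by Aldh1a2 at 3.51 (SE 0.8, adjusted p = 0.00441) and Igf2 at 3.36 (SE 1.1, adjusted p = 0.0338), and their part was not tested.

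**Figure D3:**
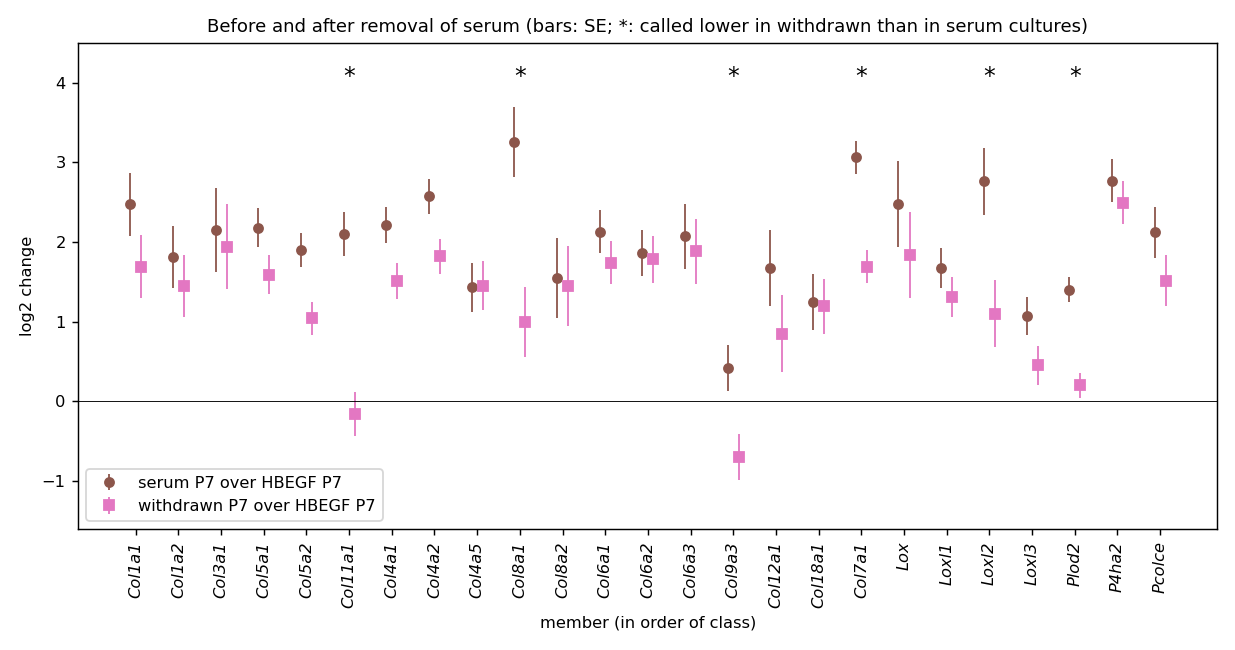
Log2 change against HBEGF P7 cultures in serum P7 cultures (circles) and in withdrawn P7 cultures (squares) for the 25 members called in serum P7 over HBEGF P7 or in withdrawn P7 over serum P7 cultures; bars are SE, and both series share the HBEGF P7 arrays. Stars mark the 6 members called lower after withdrawal; Col11a1 and Plod2 return to about 0, while Col3a1, Col6a2 and P4ha2 stay near their serum values.

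MD cultures, the other serum-grown preparation, had a split pattern. Against fresh P1 cells 15 members rose and 5 fell, or 37.7% against 19.6% of all genes (10.1% rose and 9.43% fell), whose own median was higher by 0.11. Lox rose by 5.66 (SE 0.54, adjusted p = 4.14e-07), a 50.5-fold difference, and Loxl2 by 4.69 (SE 0.42, adjusted p = 2.08e-07). Of the 5 collagen VI chains 2 rose, Col6a2 by 3.71 (SE 0.29, adjusted p = 3.16e-08) and Col6a1 by 3.15 (SE 0.27, adjusted p = 1e-07), while Col6a3 changed by 0.03 (SE 0.41, adjusted p = 0.964) and Col6a6 fell, at -1.58. Col18a1 rose by 3.13 (SE 0.35, adjusted p = 2.13e-06). Of the fibril-forming chains Col1a2 rose by 1.96, Col5a2 by 1.7 and Col5a1 by 1.34, while Col3a1 fell, at -3.18 (SE 0.53, adjusted p = 0.000127), and Col1a1, at -1.26 (SE 0.4, adjusted p = 0.0196). Col4a5 and Col16a1 fell, at -1.26 and -1.03. Plod3 rose by 1.53 (SE 0.11, adjusted p = 2.38e-08). The second Col1a1 probe set gave -0.81 (adjusted p = 0.138), which was not called. P4ha2 rose by 1.39, but by 0.88 with the mean of its probe sets, which ended the call. On leaving out 1 array, the call ended for Col8a1 (0.78 to 1.26) without fresh P1 replicate 1 or 3 or MD replicate 1 or 2 or 3, P4ha1 (0.89 to 0.98) without fresh P1 replicate 1 or MD replicate 1, and Col1a1 (-0.77 to -1.19) without fresh P1 replicate 2 or MD replicate 2 or 3. Not called either were Col7a1 (0.9 to 0.99) without fresh P1 replicate 2 or MD replicate 2, Col16a1 (-0.98) without fresh P1 replicate 3, and Col15a1 (1.25) without MD replicate 2. With the replicate number as a block, Col4a6 at -1.42 (adjusted p = 0.0287) and Col26a1 at -1.46 (adjusted p = 0.0382) were called as well.

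Against HBEGF P1 cultures, of the same age and days in culture, 15 members of MD cultures rose and 4 fell, or 35.8% against 18.4% of all genes (8.81% rose and 9.57% fell). All 4 lysyl oxidases rose: Loxl2 by 4.21 (SE 0.42, adjusted p = 9.19e-07), Lox by 4.19 (SE 0.54, adjusted p = 1.34e-05), Loxl1 by 2.4 and Loxl3 by 1.04. Chains of collagens VI, V, XVIII and I rose: Col6a2 by 2.74, Col6a1 by 2.68, Col18a1 by 2.26, Col5a1 by 2.24, Col5a2 by 1.96 and Col1a2 by 1.59. Col6a3 with 1.03 (SE 0.41, adjusted p = 0.0577), Col5a3 with 1.05 (SE 0.52, adjusted p = 0.126) and Col6a6 with -0.62 (SE 0.26, adjusted p = 0.0714) were not called. Plod3 rose by 1.71 (SE 0.11, adjusted p = 1.24e-08), P4ha2 by 1.53 and P4ha1 by 1.11. The second P4ha2 probe set gave 0.41 (adjusted p = 0.0288) and the mean of its probe sets 0.97, so the call of P4ha2 was lost with that mean. The 4 that fell were Col3a1 with -3.69 (SE 0.53, adjusted p = 3.38e-05), Col16a1 with -1.66 (SE 0.13, adjusted p = 1.01e-07), Col8a2 with -1.52 (SE 0.5, adjusted p = 0.0236) and Col1a1 with -1.31 (SE 0.4, adjusted p = 0.0159). The second Col1a1 probe set gave -0.59 (adjusted p = 0.279), and the mean of both probe sets -0.95 (adjusted p = 0.071), so the fall of Col1a1 in this comparison rests on 1 probe set. The call did not survive the loss of 1 array for Col8a2 (-1.25 to -1.54) without MD replicate 1 or 2 or HBEGF P1 replicate 1 or 2, and P4ha1 (0.96) without MD replicate 1. Similarly lost were Col15a1 (1.15 to 1.33) without MD replicate 2 or HBEGF P1 replicate 1, and Col7a1 (0.98 to 1) without MD replicate 2 or HBEGF P1 replicate 1. A call was lost also for Col1a1 (-1.19 to -1.2) without MD replicate 3 or HBEGF P1 replicate 1, and Loxl3 (0.79 to 0.88) without MD replicate 3 or HBEGF P1 replicate 2. MD cultures were not panned, so serum and preparation cannot be told apart here.

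Fibroblast and meningeal markers did not move as a block in MD cultures. Against HBEGF P1 cultures 2 of 14 rose and 6 fell: Pdgfra, at -5.49 (SE 0.68, adjusted p = 7.67e-06), Lum, at -4.7 (SE 0.49, adjusted p = 1.18e-06), Igf2, at -4.5 (SE 1.1, adjusted p = 0.0038), and Dcn, at -4.28 (SE 0.86, adjusted p = 0.000808), changed most. Pdgfra also marks oligodendrocyte progenitors, of which it and Sox10, at -1.6 (SE 0.21, adjusted p = 1.84e-05), fell among 5. Against fresh P1 cells 3 of the fibroblast and meningeal markers rose and 4 fell. Dcn was at 5.34 ± 0.54 and Lum at 4.58 ± 0.23 in MD cultures, below the median of all values, while Thy1 was at 9.11 ± 0.31 and Twist1 at 7.91 ± 0.67. Against HBEGF P1 cultures the mural marker Acta2 rose by 2.83 (SE 0.31, adjusted p = 2.48e-06) and Pdgfrb fell, at -1.52 (SE 0.3, adjusted p = 0.000707). Col1a1 and Col3a1 were thus low in the same arrays as Dcn and Lum, and Col1a2, Col5a1, Col5a2, Col6a1 and Col6a2 were not. The astrocyte marker Aldh1l1 fell against HBEGF P1 cultures, at -2.35 (SE 0.25, adjusted p = 1.29e-06), and the part of other cells in these values was not tested.

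**Figure D4:**
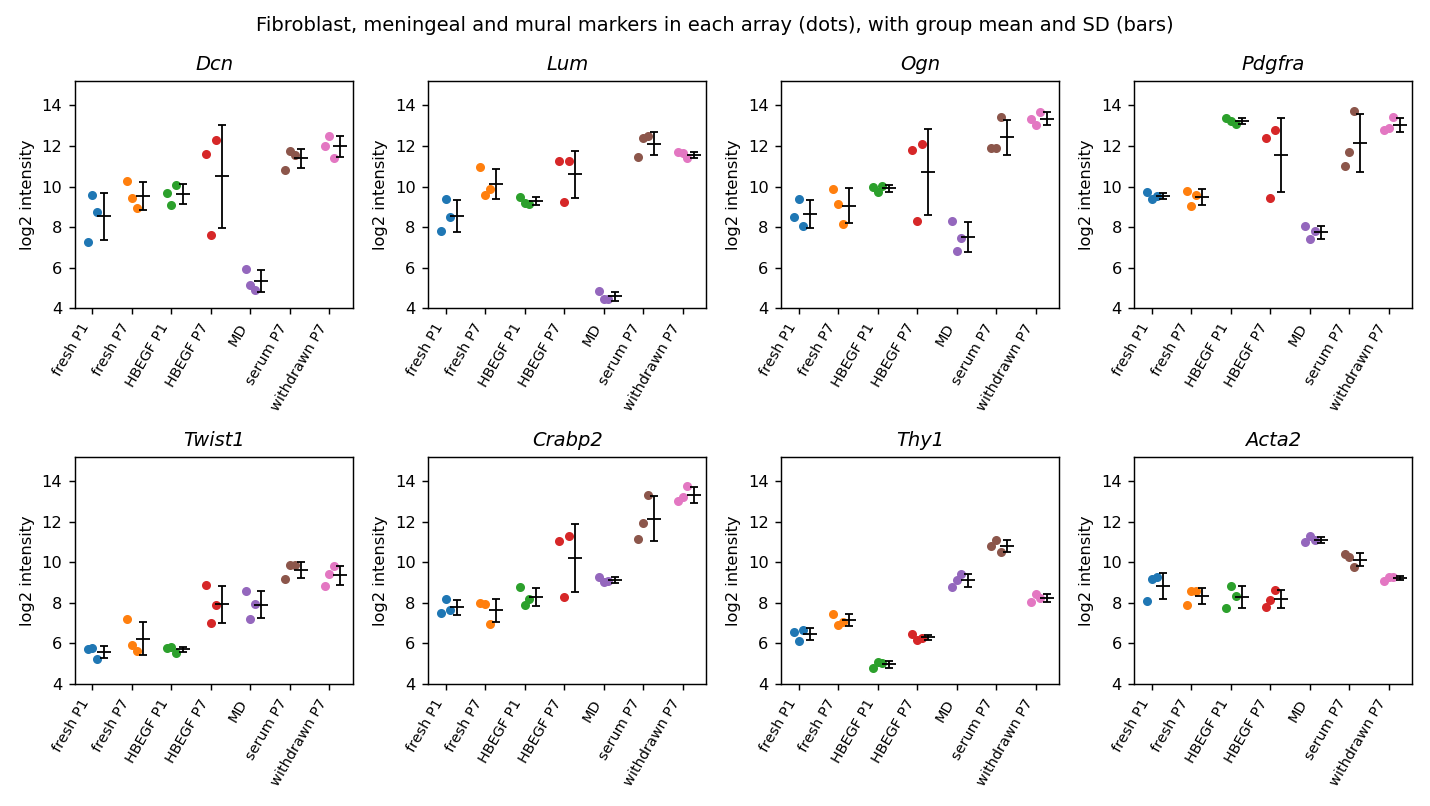
Log2 intensity of the fibroblast and meningeal markers Dcn, Lum, Ogn, Pdgfra, Twist1, Crabp2 and Thy1 and the mural marker Acta2 in each array (dots) with group mean and SD (bars). Dcn and Lum are lowest in MD cultures and high in serum P7 and withdrawn P7 cultures, and HBEGF P7 replicate 2 lies below its fellows for Dcn, Ogn, Pdgfra and Crabp2.

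Both serum-grown preparations were then set side by side. Serum P7 cultures exceeded MD cultures in 20 members and were lower in 1, which is 39.6% called, against 13.9% of all genes (7.58% rose and 6.37% fell). Col3a1 was higher by 7.33 (SE 0.53, adjusted p = 9.9e-08), a 160-fold difference, and Col1a1 by 5.35 (SE 0.4, adjusted p = 1.59e-07), or 40.8-fold. The second Col1a1 probe set gave 5.45. Col8a2 was higher by 5.27 (SE 0.5, adjusted p = 1.38e-06), Col8a1 by 4.53 (SE 0.44, adjusted p = 1.79e-06), Pcolce by 3.97 (SE 0.32, adjusted p = 3.61e-07), Col26a1 by 3.06 (SE 0.57, adjusted p = 0.000754), Col4a2 by 2.96 and Col4a1 by 2.71. Plod3 alone was lower, at -1.1 (SE 0.11, adjusted p = 3.25e-06). Lox differed by 0.01 (SE 0.54, adjusted p = 0.993), Col6a2 by 0.2 (SE 0.29, adjusted p = 0.67) and Col18a1 by 0.38 (SE 0.35, adjusted p = 0.482), and none of these was called. Among the smaller changes, single arrays decided the calls of Col14a1 (1.28 to 1.62) without MD replicate 1 or 2 or 3 or serum P7 replicate 1, Col5a2 (0.94 to 0.97) without MD replicate 2 or serum P7 replicate 2 or 3, and Col5a1 (0.9 to 0.98) without serum P7 replicate 2 or 3. Col14a1 was also lost with the mean of its probe sets, at 1.01 (adjusted p = 0.07). Of the 14 fibroblast and meningeal markers 11 were higher in serum P7 cultures, Lum by 7.54 (SE 0.49, adjusted p = 3.19e-08) and Dcn by 6.04 (SE 0.86, adjusted p = 6.58e-05), and so was the protease Ctsk by 4.96 (SE 0.53, adjusted p = 4.05e-06). Of 9 astrocyte markers 4 were also higher and 0 lower (44.4%, against 13.9% of all genes). The part of these markers was not tested, and the preparations differ in age and panning as well.

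The difference between serum-grown and HBEGF cultures was compared between preparations as a difference of differences. In its MD arm, MD over HBEGF P1 cultures, medium and panning change together and cannot be told apart. The difference of differences was called for 14 members (26.4%), against 11.3% of all genes (5.02% rose and 6.29% fell). The value is the signed change in panned P7 cells minus that of MD over HBEGF P1 cultures, and it was above 0 for 13 of the 14. It was largest for Col3a1, at 5.85 (SE 0.74, adjusted p = 0.000129), and Col1a1, at 3.78 (SE 0.56, adjusted p = 0.000413). These genes, like Col8a2, were lower in MD than in HBEGF P1 cultures and higher in serum P7 than in HBEGF P7 cultures. The difference was 3.07 (SE 0.7, adjusted p = 0.00753) for Col8a2, 2.56 (SE 0.62, adjusted p = 0.0109) for Col8a1, 2.28 (SE 0.46, adjusted p = 0.00317) for Pcolce and 2.26 (SE 0.32, adjusted p = 0.000273) for Col4a2. For Col16a1 it was 1.61, from -1.66 in MD cultures and -0.05 in panned P7 cells. Plod3 alone was below 0, at -1.22 (SE 0.16, adjusted p = 0.000169), from 1.71 in MD cultures and 0.49 in panned P7 cells. Chains of collagens V and VI and Lox were not called in this test: Col5a1 gave -0.06 (SE 0.34, adjusted p = 0.94), Col6a1 -0.55 (SE 0.38, adjusted p = 0.409) and Lox -1.71 (SE 0.77, adjusted p = 0.172). Without HBEGF P7 replicate 2, Lox was called at -2.3 (adjusted p = 0.0472) and Loxl2 at -1.91 (adjusted p = 0.034). The call of Col4a5 (0.95 to 1.46) was lost when any 1 array of these groups was left out other than HBEGF P7 replicate 3 or serum P7 replicate 1, with adjusted p up to 0.123. That of P4ha2 (0.99 to 1.3) was lost without any 1 array other than MD replicate 2, HBEGF P7 replicate 1 or 3 or serum P7 replicate 1, with adjusted p up to 0.0958, and with the mean of its probe sets, at 0.68 (adjusted p = 0.043). Called above 0 were 6 of 14 fibroblast and meningeal markers, with Lum at 6.22 and Pdgfra at 6.09, and 4 of 9 astrocyte markers. In both lists 0 were called below 0. The progenitor marker Sox10 was also called above 0, at 1.35, and the part of these markers was not tested.

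**Figure D5:**
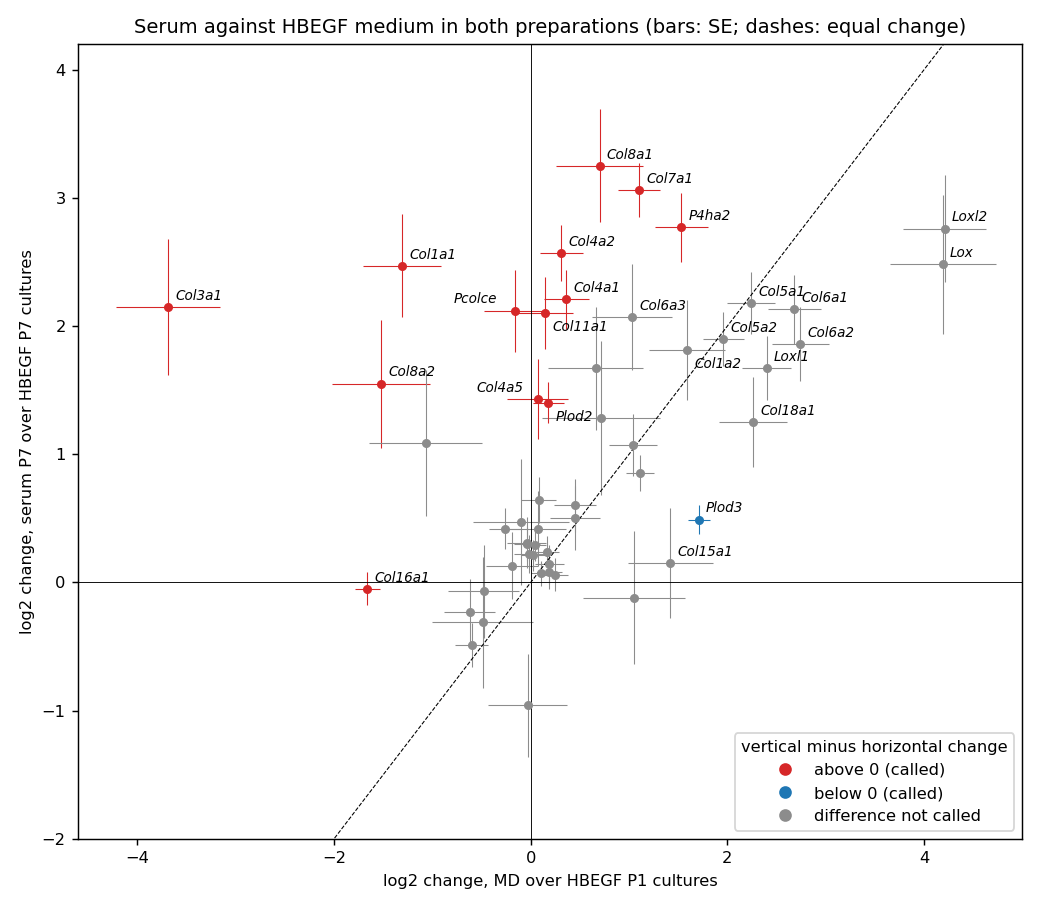
Log2 change of each of the 53 members in MD over HBEGF P1 cultures (horizontal) and in serum P7 over HBEGF P7 cultures (vertical), with SE bars; the dashed line marks equal changes. Red points (13 members) lie above that line and the blue point (Plod3) below it by a called difference, and Col3a1 and Col1a1 lie at the upper left, lower in MD and higher in serum P7 cultures.

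Of 31 other genes of the pathway listed, 21 were measured. In MD cultures against fresh P1 cells 4 rose and 1 fell, or 23.8% against 19.6% of all genes: the prolyl hydroxylase subunit P4ha3 by 3.55 (SE 0.69, adjusted p = 0.000554), P3h4 by 1.81 (SE 0.25, adjusted p = 2.4e-05) and Itga1 by 1.3 (SE 0.45, adjusted p = 0.0302) rose, and the membrane protease Mmp14 fell, at -1.46 (SE 0.15, adjusted p = 7.54e-07). Against HBEGF P1 cultures 5 rose and 2 fell (33.3%, against 18.4% of all genes), with P4ha3 at 3.09, Itga1 at 2.39 and Colgalt2, which adds sugar to collagen, at -1.99. In serum P7 over MD cultures 6 rose and 0 fell (28.6%, against 13.9% of all genes), with Ctsk at 4.96, Mmp2 at 2.93, Itga11 at 2.27 and Ddr2 at 1.99. In withdrawn P7 over HBEGF P7 cultures 5 rose and 1 fell (28.6%, against 11.7% of all genes), with Itga1 at 3.34 and Colgalt2 at -2.01. In HBEGF cultures 1 of 21 rose at each age (4.76%, against 8.87% of all genes in P1 and 10.3% in P7 cells), Colgalt2 in P1 cells (1.14) and P4ha3 in P7 cells (2.73), and 0 of 21 were called between the fresh groups.

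Some members share a locus, and their levels were set against each other over the 21 arrays as a description. Col4a1 and Col4a2, which start 76 bases apart on opposite strands, had a Pearson correlation of 0.99, and Col6a1 and Col6a2, neighbours on chromosome 20, one of 0.97. Col4a5 and Col4a6 on chromosome X gave 0.9. Col3a1 and Col5a2, neighbours on chromosome 9, gave 0.39, and Col9a1 and Col19a1, neighbours on the same chromosome, 0.01. Group means of Col9a1 (4.53 to 5.55) and Col19a1 (4.76 to 5.12) were all under 7.11. With levels that low and so close together, this value cannot show whether the genes vary together. Partner chains on different chromosomes varied as well: Col5a1 and Col5a2 gave 0.94, and Col1a1 and Col1a2 0.79, below Col1a1 and Col3a1 at 0.96. Lox and Loxl2 gave 0.96, and the median over all pairs of members was 0.23. Arrays of a group share their treatment, so these 21 points are not independent.

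More than 1 probe set was present for 19 members, 22 further probe sets in all. In 69 pairs of a further probe set and a comparison, the probe set used was called. The further probe set was also called in the same direction in 49 of these, and 0 were opposite past the adjusted p. A gene with more than 1 further probe set enters these counts once for each. For Col1a2, Lox and Loxl2 the further probe sets gave 1.69, 0.17 and 0.27 in serum P7 over MD cultures. For P4ha2 the further probe set gave 0.53 in serum P7 over HBEGF P7 cultures (adjusted p = 0.0124), where the one used gave 2.77. A further probe set of Col2a1 differed from the one used: its mean fell from 7.14 in fresh P1 cells to 4.49 in fresh P7 cells, a log2 change of -2.64 (adjusted p = 3.24e-06), where the probe set used gave -0.34 (SE 0.12, adjusted p = 0.123). It was also called lower against fresh P1 cells in HBEGF P1 cultures, at -2.72 (adjusted p = 1.89e-07), and in MD cultures, at -2.71 (adjusted p = 5.34e-08), and the culture difference between ages was 2.68 (adjusted p = 0.000246). With the mean of its probe sets Col2a1 was called lower in these 3 comparisons with fresh P1 cells, at -1.06, -1.03 and -1.01.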

How the data were processed

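RNA of 21 samples in 7 groups was hybridised to Affymetrix arrays. The authors deposited RMA intensities per the submitters' processing notes. Which software and chip definition they used is not given in the sources used here. Values from 10 to 37801, with array medians of 128 to 146, fit a linear scale, so log2 was taken. RMA includes a normalization between arrays, which can hide a shift shared by most genes. Arrays have no read depth, and 3 per group limit the precision. The median SE over genes was 0.17, and an exact permutation test of 3 against 3 arrays could not go below p = 0.1.

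Of 31042 probe sets, 20826 had 1 gene symbol, 436 several and 9780 none, per the platform annotation. Each of 14217 genes was read from 1 probe set, the brightest on average among those with a single symbol, and all 53 members matched the reference table by gene number. Promoters were from RefSeq (GRCr8). Groups were compared in limma 3.58.1 (R 4.3.3), 1 model of 7 group means over all arrays (14 residual and 2.89 prior degrees of freedom), with no block, after tests on simulated data. Differences of differences were contrasts of the same model. Alternatives were quantile normalization, median centring, a filter on dim probe sets, means of probe sets, trended robust eBayes, fits of the compared groups alone, a replicate block, no fold limit and each array left out.

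The labels give replicate numbers but not what they share. Same-numbered arrays deviated together in all 3 pairs (correlations 0.23 to 0.6) in 4 of 9 comparisons: HBEGF P1 and MD cultures against fresh P1 cells, MD against HBEGF P1 cultures, and withdrawn P7 against serum P7 cultures.

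The members and lists were chosen with earlier results of these data known. Any member may be named. Values in every array are given for Col1a1, Col1a2, Col3a1, Col4a1, Col4a2, Col6a1, Lox and Serpinh1 and up to 3 members of each class with the widest range of group means. Of the pathway and marker lists, up to 4 called genes with the largest change are named per comparison, and marker levels by array were added to show which arrays are high. The second probe sets of Col2a1 and Col14a1 and values quoted as not called were chosen after they were seen.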

Additional observations from a re-analysis of the deposited data

Results flagged for a closer look

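A set of 16 results stood out because a change differed between preparations or ages by a test of the difference itself (limma, 1 model of all arrays). The change from fresh cells to HBEGF culture was lower, as a signed value, in P7 than in P1 cells for Col11a2, by a difference of -1.51, and for Col27a1, by -1.39. The change from HBEGF medium to serum was higher, as a signed value, in panned P7 cells than between MD and HBEGF P1 cultures for 13 members. Among fibril-forming chains the difference was 3.78 for Col1a1, 5.85 for Col3a1 and 1.95 for Col11a1. Among network-forming chains it was 1.85 for Col4a1, 2.26 for Col4a2, 1.36 for Col4a5, 2.56 for Col8a1 and 3.07 for Col8a2. It was 1.61 for Col16a1 and 1.97 for Col7a1. Among enzymes it was 1.22 for Plod2, 1.24 for P4ha2 and 2.28 for Pcolce, and it was lower for Plod3, at -1.22. The call of Col4a5 was lost on leaving out any of 10 arrays, with median centring and in the fit of the compared groups alone. That of P4ha2 was lost on leaving out any of 8 arrays and with the mean of its probe sets (0.68). Preparation, age and panning differ together in the serum comparison and cannot be told apart.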

How the results depend on the processing

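Of 583 pairs of a member and a comparison, 146 were called. Leaving out some 1 array lost 39 of these calls, some other alternative lost 33, and 0 changed sign. With the limma fit on the groups of a comparison alone, calls came to 4 in place of 2 in fresh P7 over fresh P1 cells, 11 in place of 21 in withdrawn P7 over HBEGF P7 cultures, and 1 in place of 2 for the culture difference between ages. With no fold limit they came to 5 in fresh P7 over fresh P1 cells and 12 in HBEGF P1 cultures over fresh P1 cells. Quantile normalization lost 2 calls, median centring 4, the mean of probe sets 7 and the fits of the compared groups alone 24, while trended robust eBayes and the filter on dim probe sets lost 0. That filter left out 11 members. With each array left out in turn, calls ranged from 2 to 6 (fresh P7 over fresh P1), 4 to 8 (HBEGF P1 over fresh P1), 10 to 14 (HBEGF P7 over fresh P7), 20 to 25 (serum P7 over HBEGF P7), 4 to 6 (withdrawn P7 over serum P7), 12 to 24 (withdrawn P7 over HBEGF P7), 16 to 19 (MD over fresh P1), 15 to 19 (MD over HBEGF P1) and 19 to 22 (serum P7 over MD). They ranged from 2 to 4 for the culture difference and 12 to 15 for the serum difference.

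With the replicate number as a block, which pairs same-numbered arrays, the counts in the order just given were 2, 5, 13, 24, 6, 22, 22, 19, 22, 2 and 14, and 0 calls were lost. Beside those named for MD over fresh P1, it added Col4a6 in HBEGF P7 over fresh P7 (-1.66, adjusted p = 0.0192), Loxl2 in withdrawn P7 over HBEGF P7 (1.1, adjusted p = 0.042) and Loxl2 in serum P7 over MD (1.08, adjusted p = 0.0438). In the 5 comparisons whose arrays were not paired by the check, correlations ran from -0.14 to 0.35. Signal over background was not used, so levels of the dimmest members are limited by it to an unknown degree.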
